A study of Mus musculus with 4 samples.

Results

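The YAP/TAZ axis of the Hippo pathway was followed in fetal mouse lung through 10 genes, taken by name from the 45706 genes of the deposited count table. They were the effectors *Yap1* and *Wwtr1* (which encodes TAZ), the DNA-binding partners *Tead1* and *Tead4*, the inhibitory kinases *Lats1* and *Lats2*, the scaffolds *Amotl1* and *Amotl2*, and the secreted targets *Ctgf* and *Cyr61*, listed in newer annotation as *Ccn2* and *Ccn1*. All 10 had a single row each and passed the filter on low counts. RNA of whole left lung lobes was compared between 2 wild-type embryos (*Myh10*+/+) and 2 embryos carrying Myh10L458R/L458R (*Myh10*-/-), all untreated C57BL/6 mice at embryonic day 17. The L458R allele is a chemically induced point mutation in the motor domain of nonmuscle myosin II-B, carried by every cell of the embryo and not by lung cells alone. The mutant lungs are called *Myh10*-/- as in the study, although the transcript is still made.

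In the Hippo pathway, the kinases LATS1 and LATS2 phosphorylate YAP and TAZ, which are then held in the cytoplasm or degraded. Unphosphorylated YAP and TAZ enter the nucleus and, through TEAD proteins, activate genes such as *Ctgf*, *Cyr61* and *Amotl2*. The pathway responds to cell junctions, cell shape and actomyosin tension, and in the lung YAP and TAZ are known to act in airway patterning and in the differentiation of alveolar type 1 (AT1) cells, the flat cells of gas exchange. Activity of YAP and TAZ is set mainly by phosphorylation and location of the proteins, neither of which RNA counts measure.

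Between 19116971 and 32055306 reads per lung were counted on genes, of which 0.136% to 0.141% lay on the 10 genes. *Myh10* itself was counted at 505 and 504 CPM (normalized counts, scaled to a common library size with TMM factors) in *Myh10*+/+ lungs and at 539 and 513 CPM in *Myh10*-/- lungs. A single base change leaves the count in place, so *Myh10* is no check of genotype. Each genotype held 1 lung with abundant *Xist*, of the inactive X chromosome, and 1 with the Y-linked *Ddx3y*, so that sex did not separate the genotypes.

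None of the 10 genes passed the threshold of an adjusted p-value under 0.05 in the quasi-likelihood test of edgeR, where 1.34% of the 18763 tested genes were called lower and 0.298% higher in *Myh10*-/- lungs. The smallest adjusted p-values belonged to *Wwtr1*, *Tead4* and *Ctgf*, for which the fitted difference of the mutant lungs was -13.8%, -19.5% and -18.7%. At an unadjusted p-value under 0.05 these 3 genes were lower, against 9.02% of tested genes, and *Tead1* was higher, against 7.52%. The Wald test of DESeq2 called 1 of the 10, *Wwtr1*, at an adjusted p-value under 0.05, where 2.58% were called lower of the 10032 genes to which it gave an adjusted p-value, a smaller base than that of edgeR. The median log2 fold change of the 10 genes was -0.04, and that of all tested genes was 0.0018. For 4 of the 10 genes (*Yap1*, *Wwtr1*, *Tead4*, *Ctgf*) both mutant lungs lay below both wild-type lungs, as for 24.3% of all tested genes. For *Tead1* and *Lats1* both lay above, as for 23.9%. The values moved with single lungs: without *Myh10*-/- lung 2, the log2 fold changes of *Wwtr1*, *Tead4* and *Tead1* were -0.26, -0.37 and 0.22. Without *Myh10*-/- lung 1 they were -0.17, -0.26 and 0.11. *Ctgf* stood at -0.35 without *Myh10*-/- lung 1 and at -0.24 without *Myh10*-/- lung 2.

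**Figure D1:**
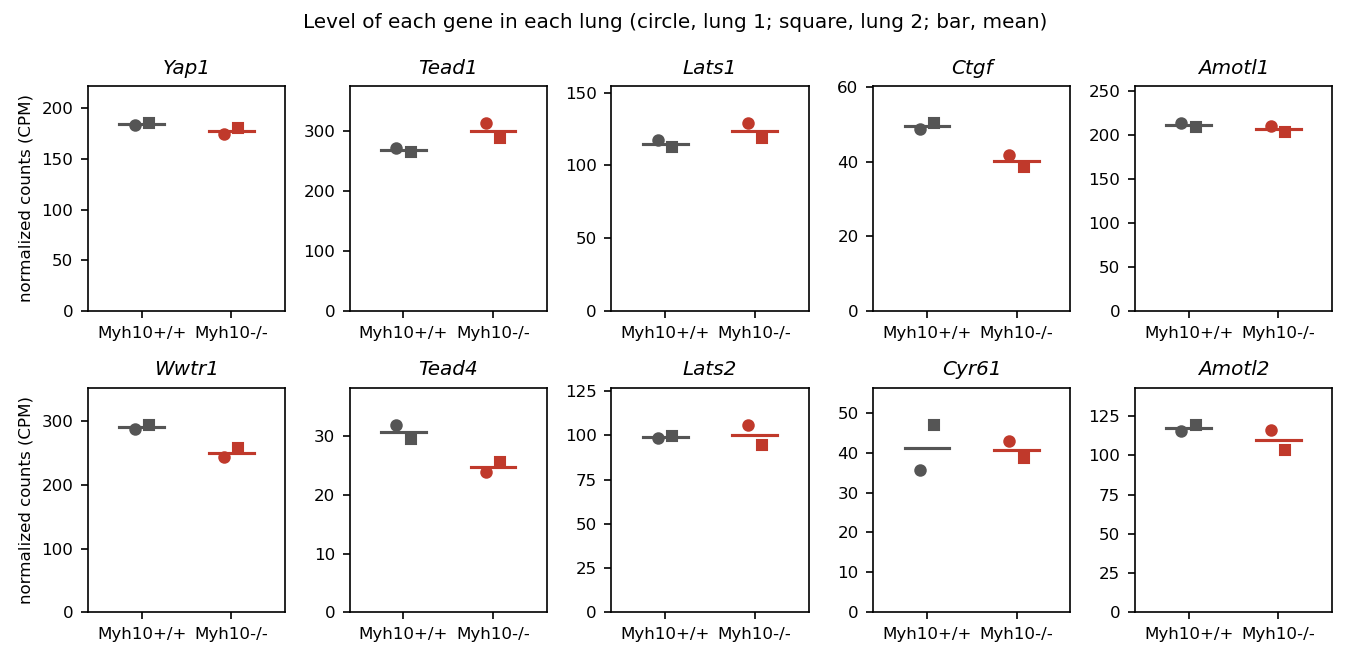
Normalized counts (CPM, y axis from 0) of the 10 genes in 2 *Myh10*+/+ and 2 *Myh10*-/- lungs, with a bar at the mean of each genotype. The lungs of the genotypes are separated most visibly for *Wwtr1* (287 and 293 against 243 and 258 CPM), *Tead4* and *Ctgf*, and they overlap for *Lats2*, *Cyr61*, *Amotl1* and *Amotl2*.

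Among the inhibitory kinases, neither LATS gene showed a difference that passed the test. *Lats1* (chromosome 10, 7681214 to 7716460 on GRCm38) was counted at 117 and 112 CPM in *Myh10*+/+ lungs and at 129 and 118 CPM in *Myh10*-/- lungs. Both mutant lungs were above the wild-type lungs, though mutant lung 2 exceeded wild-type lung 1 by little, and the fitted log2 fold change was 0.11 ± 0.06 (SE), with an adjusted p of 0.385 from edgeR. *Lats2* (chromosome 14, 57689662 to 57758388) had 98.3 and 99.6 CPM in *Myh10*+/+ and 106 and 94.3 CPM in *Myh10*-/- lungs. The wild-type values lay between the mutant ones, and the log2 fold change was 0.02 (95% interval -0.12 to 0.16, adjusted p = 0.933). In GENCODE M21, 2955 exonic bases of *Lats2* are shared with the same-strand gene Gm49361, which has no row in the deposited table.

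The upstream part of the cascade was described with 15 genes of the kinase core and its regulators, all of which were tested and none of which passed. Their median log2 fold change was -0.05, with single genes from -0.21 to 0.12, and 1 gene was lower and 2 were higher at an unadjusted p-value under 0.05 (9.02% and 7.52% of all tested genes). The lower one was *Wwc1*, which encodes KIBRA, a scaffold that promotes LATS activation. It had 154 and 157 CPM in *Myh10*+/+ and 139 and 129 CPM in *Myh10*-/- lungs. Both mutant lungs were lower, by -0.21 ± 0.05 (SE) on the log2 scale, with an adjusted p of 0.0679. Without *Myh10*-/- lung 1, which lay nearer to the wild-type lungs, the value was -0.26, from *Myh10*-/- lung 2 alone. *Taok1*, a kinase upstream of the MST kinases, and *Stk38*, a kinase related to LATS, both had log2 fold changes of 0.12, with adjusted p-values of 0.212 and 0.220.

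The angiomotin scaffolds bind YAP and TAZ outside the nucleus and also promote LATS activity, and *Amotl2* is itself a YAP/TAZ target. *Amotl1* (chromosome 9, 14541966 to 14645056) was counted at 214 and 209 CPM in *Myh10*+/+ lungs and at 210 and 204 CPM in *Myh10*-/- lungs. These ranges overlapped, with a log2 fold change of -0.03 (95% interval -0.13 to 0.07, adjusted p = 0.793). For *Amotl2* (chromosome 9, 102716672 to 102733418) the values were 116 and 119 CPM in *Myh10*+/+ and 116 and 103 CPM in *Myh10*-/- lungs. Mutant lung 1 lay within the wild-type range and mutant lung 2 below it, and the log2 fold change was -0.10 (95% interval -0.24 to 0.04, adjusted p = 0.457). The list of genes for cytoplasmic binding of YAP and TAZ, with *Amot*, *Ptpn14* and 6 Ywha genes, had a median log2 fold change of -0.03, and none of its 8 genes passed. *Ywhag*, which encodes an adapter for phosphorylated YAP and TAZ, had the smallest p-value of this list, with a log2 fold change of -0.14 (adjusted p = 0.181). *Ywhab*, of the same family, had -0.10 (adjusted p = 0.348) and *Amot* had 0.16 (adjusted p = 0.35).

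Of the effectors, *Wwtr1* came closest to the threshold among the 10 genes. *Wwtr1* (chromosome 3, 57455649 to 57575910) was counted at 287 and 293 CPM in *Myh10*+/+ lungs and at 243 and 258 CPM in *Myh10*-/- lungs. The groups did not overlap, and the gap between them was larger than the difference between lungs of 1 genotype. Its log2 fold change was -0.21 ± 0.05 (SE), with a 95% interval of -0.32 to -0.11 and an adjusted p of 0.0521. It passed in 6 of 11 other fits to all 4 lungs, with adjusted p-values from 0.00142 to 0.112. Among the 6 were the fits that block lungs by replicate number, although lungs of the same number were not taken as pairs. The 11 include a fit added after the data were seen, which did not call *Wwtr1*. *Yap1* (chromosome 9, 7931999 to 8004596) had 184 and 185 CPM in *Myh10*+/+ lungs and 175 and 181 CPM in *Myh10*-/- lungs. Its values did not overlap either but differed by less, with a log2 fold change of -0.05 (95% interval -0.15 to 0.05, adjusted p = 0.638).

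Levels of different genes were set side by side per kilobase of merged exon. *Wwtr1* was the highest of the 10 genes, at 60.8 ± 0.895 CPM per kb in *Myh10*+/+ lungs (SD, n = 2). In *Myh10*-/- lungs it stood at 52.4 ± 2.28 CPM per kb (SD, n = 2). *Yap1* stood at 19.9 ± 0.116 and 19.2 ± 0.475 CPM per kb (SD, n = 2). On this scale *Wwtr1* made up 75.2% and 75.4% of the combined *Yap1* and *Wwtr1* level in *Myh10*+/+ lungs. In *Myh10*-/- lungs its share was 72.9% and 73.4%. The divisor was the merged exons of all isoforms, 9257 bases for *Yap1* and 4779 for *Wwtr1*. Their longest coding transcripts have 4171 and 4697 bases, so the share of *Wwtr1* and the order of the genes depend on this divisor. The combined level was 80.0 and 81.4 CPM per kb in *Myh10*+/+ and 69.7 and 73.6 CPM per kb in *Myh10*-/- lungs. Behind it by wild-type mean came *Amotl1*, *Cyr61* (20.4), *Yap1* (19.9) and *Tead1* (19.8 CPM per kb), and over the 4 lungs the ranges of neighbours in this order overlapped, so that these genes were not ordered beyond their spread. *Amotl2*, *Ctgf* and *Lats1* followed at 18.7, 17.3 and 15.7 CPM per kb, and here too neighbours overlapped. *Lats2*, at 14.2 CPM per kb, lay below *Lats1* without overlap on this divisor (6971 and 7297 bases). Their longest coding transcripts have 5191 and 7209 bases, and dividing by these would put *Lats2* above *Lats1*. The lowest was *Tead4*, at 8.55 CPM per kb, whose range in the 4 lungs, 6.63 to 8.88, lay below that of every other gene.

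**Figure D2:**
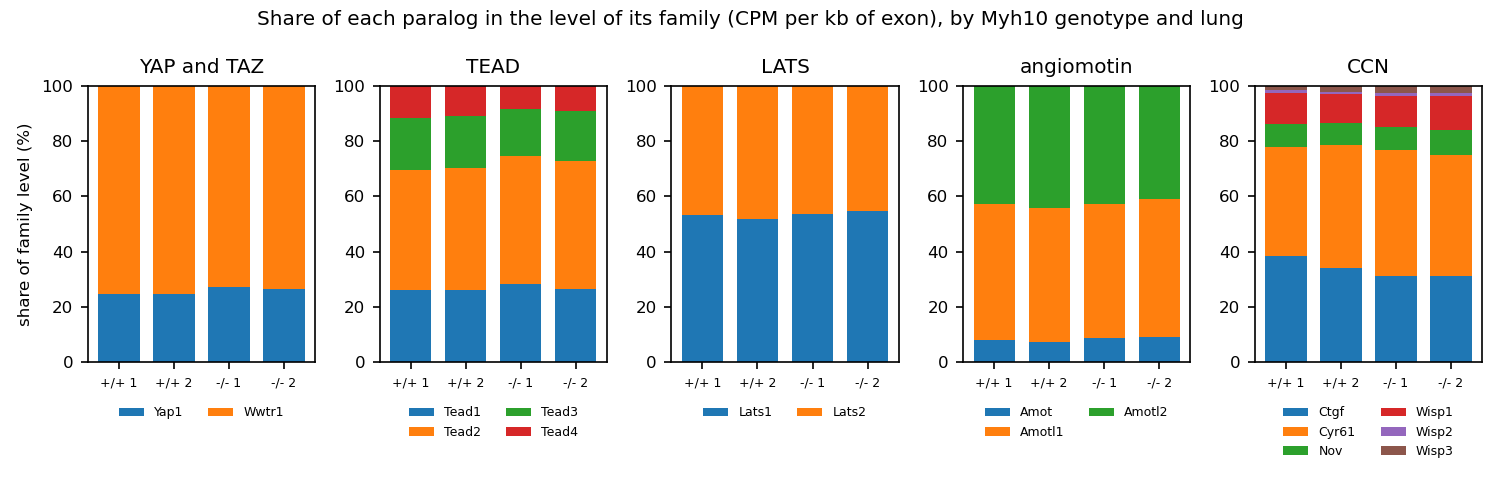
Share (%, y axis) of each paralog in the summed level of its family, in CPM per kb of merged exon, for each of the 4 lungs. The shares depend on the exon length used. *Wwtr1* holds 72.9% to 75.4% of the *Yap1* and *Wwtr1* level, and *Tead4* takes 10.9% to 11.5% of the TEAD level in *Myh10*+/+ lungs and 8.17% to 8.92% in *Myh10*-/- lungs.

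TEAD proteins bind DNA at the sequence GGAATG, or CATTCC when read from the other strand. RefSeq promoter sequences of the GRCm38.p6 assembly covered 7 of the 10 genes, and *Tead1*, *Tead4* and *Ctgf* had none there. The RefSeq starts used for *Lats2*, *Amotl1* and *Amotl2* lie inside the gene spans given above. In the 250 bases before these starts, 4 of the 7 genes held this motif on either strand. By window it was 5 of 9, against 12.6% of the 32851 promoters. Windows of these 4 genes are shown because they belong to both effectors and to 2 targets, with the motif in capitals and each sequence read along its gene.
*Yap1* (chr9:8004597-8004846, minus strand): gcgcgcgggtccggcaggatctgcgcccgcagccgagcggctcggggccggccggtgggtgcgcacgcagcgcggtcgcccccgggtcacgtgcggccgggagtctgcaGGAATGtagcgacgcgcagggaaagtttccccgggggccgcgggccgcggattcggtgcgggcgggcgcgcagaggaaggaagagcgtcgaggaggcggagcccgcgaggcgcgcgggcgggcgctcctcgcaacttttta
*Wwtr1* (chr3:57575911-57576160, minus strand): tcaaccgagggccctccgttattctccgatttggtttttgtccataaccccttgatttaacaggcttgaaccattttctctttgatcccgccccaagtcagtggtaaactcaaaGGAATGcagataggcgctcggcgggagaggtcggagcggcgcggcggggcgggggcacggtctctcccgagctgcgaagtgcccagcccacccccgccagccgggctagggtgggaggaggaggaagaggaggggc
*Cyr61* (chr3:145649986-145650235, minus strand): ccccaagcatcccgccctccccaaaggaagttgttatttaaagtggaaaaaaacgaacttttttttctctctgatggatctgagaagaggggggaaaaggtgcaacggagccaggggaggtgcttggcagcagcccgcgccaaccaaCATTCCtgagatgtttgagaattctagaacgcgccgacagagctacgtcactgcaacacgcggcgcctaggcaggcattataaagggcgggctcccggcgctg
*Amotl2* (chr9:102717554-102717803, plus strand): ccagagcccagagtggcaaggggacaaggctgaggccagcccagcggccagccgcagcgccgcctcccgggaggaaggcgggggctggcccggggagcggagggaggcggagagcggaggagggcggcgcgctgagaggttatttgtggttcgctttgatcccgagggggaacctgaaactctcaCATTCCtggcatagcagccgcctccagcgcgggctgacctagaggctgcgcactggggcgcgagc
Counted from the start of transcription, the first base of the motif is at -141 in *Yap1*, -136 in *Wwtr1*, -103 in *Cyr61* and -65 in *Amotl2*. *Wwtr1* has another RefSeq start, whose window holds the same match at -170. It stands as GGAATG in *Yap1* and *Wwtr1* and as CATTCC in *Cyr61* and *Amotl2*. Of the target signature described further on, 4 of 12 genes with a promoter entry held it, as GGAATG in *Ankrd1*, *Axl* and *Crim1* and as CATTCC in *Ptpn14*. Each printed window has 1 match, and a match of these letters is no measurement of binding.

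The differences of the 2 TEAD genes had opposite signs, and neither passed the test. *Tead4* (chromosome 6, 128224288 to 128300823) was counted at 32.0 and 29.6 CPM in *Myh10*+/+ lungs and at 23.9 and 25.7 CPM in *Myh10*-/- lungs. The groups did not overlap, and the log2 fold change was -0.31 ± 0.08 (SE), with a 95% interval of -0.48 to -0.15 and an adjusted p of 0.0662. *Tead1* (chromosome 7, 112679318 to 112906807) had 271 and 265 CPM in *Myh10*+/+ lungs and 312 and 289 CPM in *Myh10*-/- lungs, with both mutant lungs above the wild-type lungs. The difference was 0.16 ± 0.05 (SE) on the log2 scale, with a 95% interval of 0.05 to 0.28 and an adjusted p of 0.14. *Tead4* passed in 3 of 11 other fits to all 4 lungs (adjusted p = 0.0169 to 0.121) and *Tead1* in 2 (adjusted p = 0.0203 to 0.251). For each gene these included a fit that blocks lungs by replicate number, a pairing not adopted here.

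The other TEAD genes and the VGLL cofactors, which compete with YAP and TAZ for TEAD, were listed as nuclear partners. *Tead2* had 161 and 160 CPM in *Myh10*+/+ and 179 and 178 CPM in *Myh10*-/- lungs. Both mutant lungs were higher, by 0.16 ± 0.05 (SE) on the log2 scale with an adjusted p of 0.115. Per kilobase of merged exon, *Tead2* was the most abundant TEAD gene, at 43.5% to 46.4% of the family. The log2 fold change of *Vgll3* was 0.18 (adjusted p = 0.347) and that of *Vgll4* was 0.02 (adjusted p = 0.888). *Vgll1* and *Vgll2*, with at most 7 counts in a lung, were below the filter. Summed over *Tead1* to *Tead4*, the TEAD level was 77.1 and 75.4 CPM per kb in *Myh10*+/+ and 81.2 and 80.1 CPM per kb in *Myh10*-/- lungs. The share of *Tead4* in it was 11.5% and 10.9% in *Myh10*+/+ and 8.17% and 8.92% in *Myh10*-/- lungs, while the shares of *Tead1* and *Tead2* were higher in both mutant lungs.

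Neither CCN target passed the test. *Ctgf* (chromosome 10, 24595442 to 24598683), the gene of a matricellular growth factor that is a standard readout of YAP and TAZ, was counted at 48.7 and 50.3 CPM in *Myh10*+/+ lungs and at 41.7 and 38.7 CPM in *Myh10*-/- lungs. The groups did not overlap, and the log2 fold change was -0.30 ± 0.08 (SE), with a 95% interval of -0.46 to -0.13 and an adjusted p of 0.0762. It passed in 4 of 11 other fits to all 4 lungs, with adjusted p-values from 0.0234 to 0.128. Among the 4 was the fit added after the data were seen (adjusted p = 0.0451 from edgeR). The antisense gene *Gm15270*, with 18 to 32 counts in a lung, overlaps 665 exonic bases of *Ctgf*, and since the sources do not say if strand was considered in counting, the *Ctgf* count is uncertain there. *Cyr61* (chromosome 3, 145646976 to 145649981), a related secreted protein gene with the motif shown above, had 35.6 and 46.9 CPM in *Myh10*+/+ and 42.8 and 38.7 CPM in *Myh10*-/- lungs. The mutant values lay between the wild-type ones, and no difference was detectable (log2 fold change -0.02, 95% interval -0.26 to 0.23, adjusted p = 0.964). The other CCN genes, *Nov*, *Wisp1*, *Wisp2* and *Wisp3*, had log2 fold changes from 0.02 to 0.36, none of which passed, and together with *Ctgf* and *Cyr61* they summed to 44.4 and 51.8 CPM per kb in *Myh10*+/+ and 46.7 and 43.6 CPM per kb in *Myh10*-/- lungs. *Wisp3* and *Wisp2* had the smallest p-values, with adjusted values of 0.576 and 0.695 at no more than 1.65 CPM, and *Nov* had 0.809.

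Ratios of paralogs within a lung do not depend on the scaling between libraries. The log2 ratio of *Wwtr1* to *Yap1* was 0.65 and 0.66 in *Myh10*+/+ lungs and 0.47 and 0.51 in *Myh10*-/- lungs, a difference of -0.16 between the means. For *Tead4* to *Tead1* it was -3.08 and -3.16 in *Myh10*+/+ and -3.71 and -3.49 in *Myh10*-/- lungs, the widest difference of the 5 pairs at -0.47. The ratio of *Cyr61* to *Ctgf* was -0.45 and -0.10 in *Myh10*+/+ and 0.04 and -0.0012 in *Myh10*-/- lungs, a difference of 0.29 that was smaller than the gap of 0.35 between the wild-type lungs. For *Lats2* to *Lats1* and *Amotl2* to *Amotl1* the differences were -0.09 and -0.07, and in the latter pair the genotypes overlapped. With 2 lungs per genotype an exact two-sided permutation test cannot go below p = 0.333, the value for 4 of the pairs (0.417 adjusted over the 5 pairs), and it gave 0.667 for *Amotl2* to *Amotl1*.

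**Figure D3:**
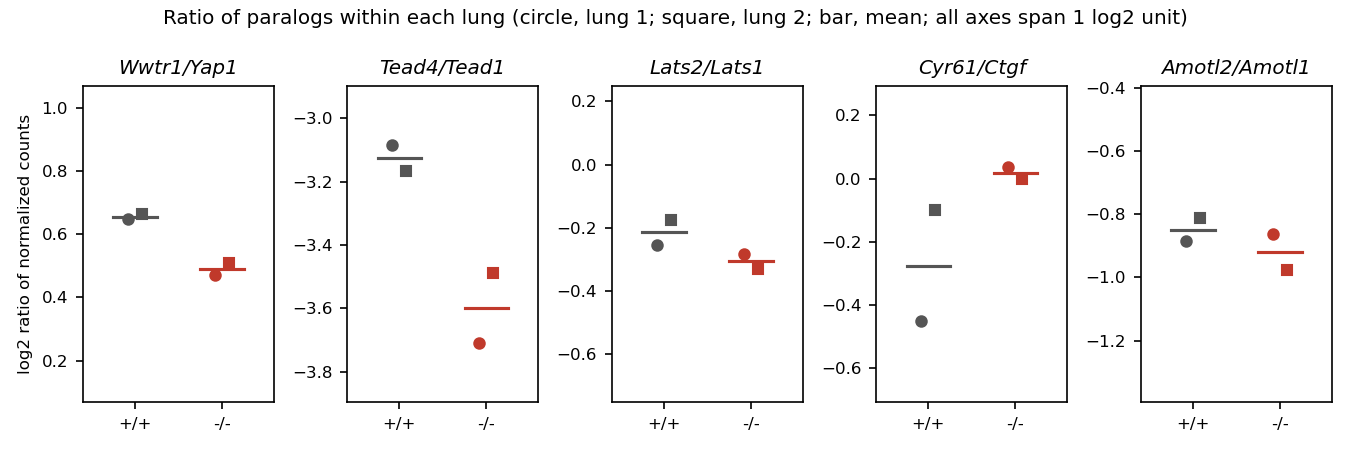
Log2 ratio of normalized counts of 2 paralogs within each lung (y axis, every panel spanning 1 log2 unit), for *Myh10*+/+ and *Myh10*-/- lungs, with bars at the means. The genotypes differ by -0.16 for *Wwtr1*/*Yap1* and by -0.47 for *Tead4*/*Tead1*, and the wild-type lungs are 0.35 apart for *Cyr61*/*Ctgf*.

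A signature of 18 further genes known to follow YAP and TAZ in cultured cells was tested in full, and none passed. Its median log2 fold change was -0.03, with 10 genes below 0 and 8 above, against 49.5% of all tested genes below 0. At an unadjusted p-value under 0.05, 2 of the 18 were lower, against 9.02% of all tested genes, and 0 higher. These were *F3*, the gene of tissue factor, with 39.7 and 48.6 CPM in *Myh10*+/+ and 34.4 and 36.6 CPM in *Myh10*-/- lungs (log2 fold change -0.31, adjusted p = 0.129), and *Gadd45a*, a stress-induced growth arrest gene, with 7.51 and 6.88 against 4.89 and 5.69 CPM (log2 fold change -0.44, adjusted p = 0.153). *Fjx1* came next by p-value, with a log2 fold change of -0.33 (adjusted p = 0.322). *Ankrd1*, which was named after its values were seen because it is both a common YAP target and a gene of heart muscle, had the most negative log2 fold change of the signature, -0.56 ± 0.27 (SE), with an adjusted p of 0.329. Its values of 5.37 and 7.46 CPM in *Myh10*+/+ and 5.90 and 2.86 CPM in *Myh10*-/- lungs overlapped, and *Myh10*-/- lung 1 lay within the wild-type range. Without that lung the difference was -1.15, which rests on *Myh10*-/- lung 2 alone, at 92 counts. The log2 fold change of *F3* was -0.45 without *Myh10*+/+ lung 1 and -0.35 without *Myh10*-/- lung 2. In each case the lung left out was the one nearer to the other genotype.

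Junction and polarity proteins feed into the pathway from the cell surface. None of the 14 genes on this list passed, and at an unadjusted p-value under 0.05 there were 4 lower and 1 higher, against 9.02% and 7.52% of all tested genes, with a list median of -0.02. *Limd1*, of the Ajuba family that inhibits LATS, had 171 and 170 CPM in *Myh10*+/+ and 144 and 159 CPM in *Myh10*-/- lungs, with a log2 fold change of -0.17 (adjusted p = 0.154). *Patj*, a scaffold of the Crumbs polarity complex, had 77.6 and 77.7 CPM in *Myh10*+/+ and 69.8 and 66.4 CPM in *Myh10*-/- lungs, and a value of -0.19 on the log2 scale (adjusted p = 0.173). Also among these genes, and named after their values were seen, were *Ajuba* at -0.12 (adjusted p = 0.285) and, on the higher side, the giant cadherin *Fat4* at 0.17 (adjusted p = 0.19). Without *Myh10*-/- lung 2, the log2 fold changes of *Limd1* and *Fat4* were -0.24 and 0.22. For both genes this lung lay nearer to the wild-type lungs than *Myh10*-/- lung 1, on which those values rest alone. Over all 62 tested genes of the 6 pathway lists, each counted once, 0 passed an adjusted p-value under 0.05 with edgeR and 0 with DESeq2, and 12 had an unadjusted p-value under 0.05 with edgeR, 8 of them lower and 4 higher, beside the same shares of 9.02% and 7.52% of all tested genes.

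**Figure D4:**
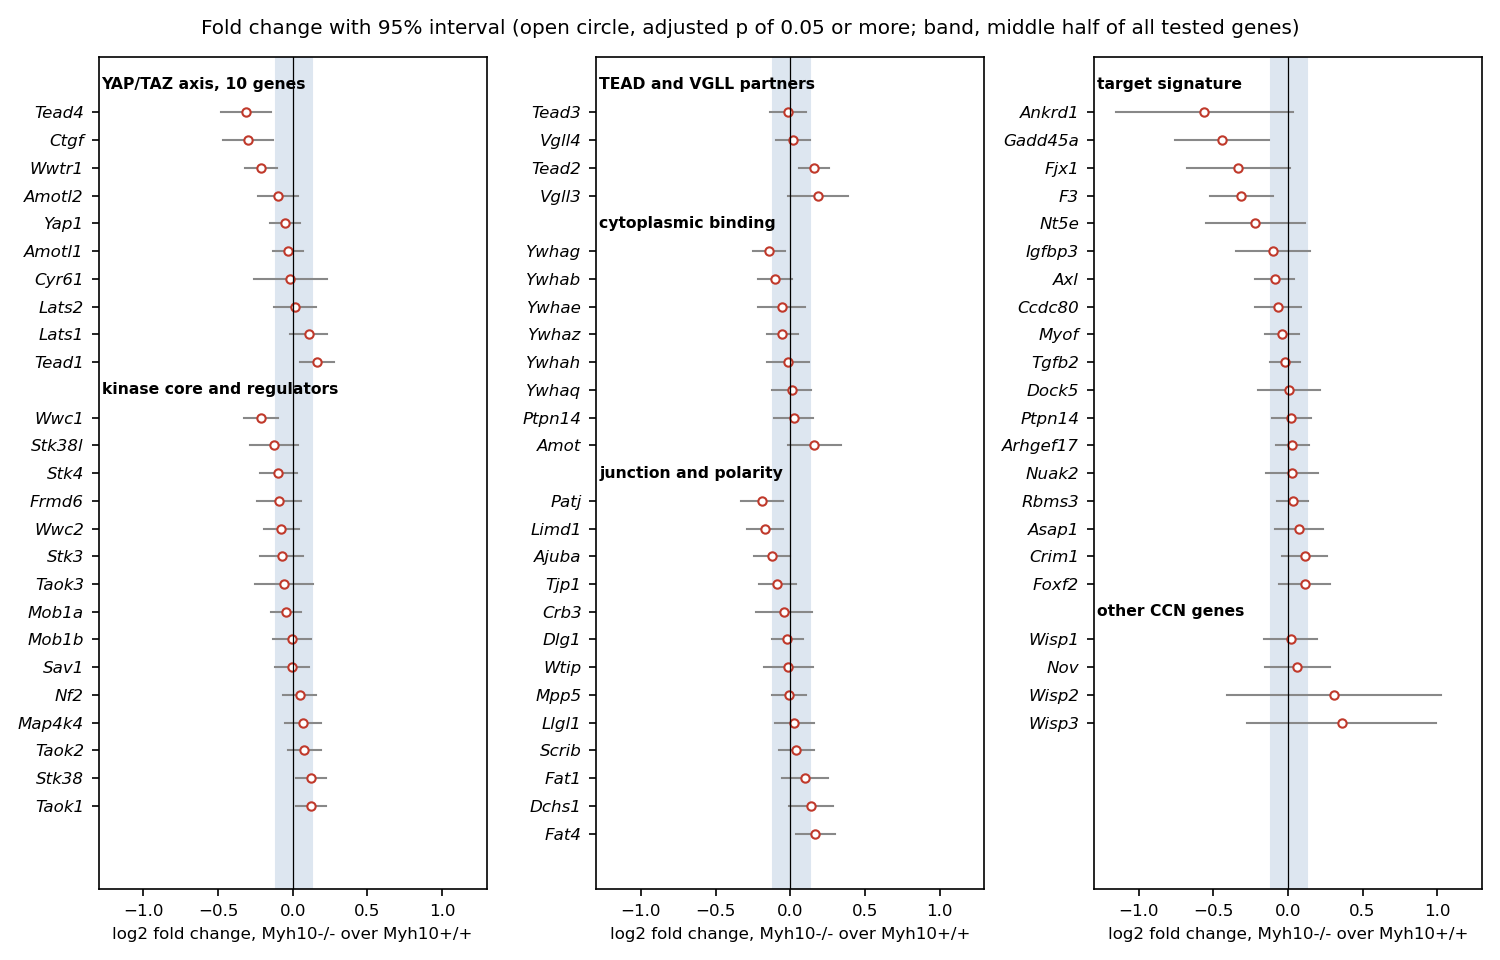
Log2 fold change of *Myh10*-/- over *Myh10*+/+ lungs (x axis) with its 95% interval for the 10 genes and the genes of the 6 lists that are reported here, over a band that holds the middle range of all tested genes from the lower to the upper quartile (-0.11 to 0.13). No symbol is filled, since none passed an adjusted p-value under 0.05. Of the 10 genes, *Wwtr1*, *Tead4* and *Ctgf* have intervals wholly below 0 and *Tead1* wholly above. Some list genes also have intervals wholly below 0 (such as *Wwc1*) or wholly above it (such as *Tead2*).

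Markers of several lung cell types differed beside these genes, and whole lobes cannot tell fewer cells of a type from less RNA per cell. A marker is said to fall where edgeR called it lower at an adjusted p-value under 0.05, as for 1.34% of all tested genes. Of 8 markers of AT1 cells 7 fell and all 8 had a log2 fold change below 0. The 8 summed to 3531 and 3408 CPM in *Myh10*+/+ against 2595 and 2940 CPM in *Myh10*-/- lungs. Of 6 markers of surfactant-producing alveolar type 2 (AT2) cells 5 fell and all 6 were below 0. The 6 summed to 8638 and 8220 CPM in *Myh10*+/+ against 5726 and 6809 CPM in *Myh10*-/- lungs. Most of these sums was *Sftpc*, the marker that did not pass, with 5815 and 5630 against 3876 and 4750 CPM (adjusted p = 0.173). *Aqp5*, a water channel of AT1 cells, had a log2 fold change of -1.23 (adjusted p = 0.00897), and *Sftpb*, a surfactant protein gene, had -0.48 (adjusted p = 0.00961). Among 4 airway markers *Scgb1a1*, of club cells, fell by 1.36 on the log2 scale (adjusted p = 0.00897). Heart muscle markers fell for 5 of 7 tested genes, and all 7 were below 0. The defining marker *Nppa* had only 1 or 2 counts in a lung. In sum the 7 tested markers stood at 249 and 312 CPM in *Myh10*+/+ and 200 and 183 CPM in *Myh10*-/- lungs. For mesothelium 2 of 5 markers fell, *Msln* (207 and 224 against 129 and 169 CPM) and *Krt19* (238 and 238 against 173 and 201 CPM). Another 2, *Wt1* and *Lrrn4*, were above 0 without passing. *Msln* and *Krt19* held most of the mesothelial sums, 552 and 581 CPM in *Myh10*+/+ against 404 and 482 CPM in *Myh10*-/- lungs. Of 5 genes listed as leukocyte markers 1 fell, *Lyz2* (186 and 173 against 117 and 148 CPM). It held most of the sums of this list (257 and 239 against 176 and 213 CPM). The other 4 did not pass, with log2 fold changes from -0.27 (*Ptprc*) to 0.08 (*Cd68*). Which cells the RNA of *Lyz2* and *Krt19* came from was not tested. For erythroid cells 2 of 6 fell and all 6 were below 0 (4259 and 5348 against 3759 and 4274 CPM in sum). The airway sums were 613 and 797 against 489 and 574 CPM, with all 4 markers below 0. None of 6 fibroblast, 6 smooth muscle or 5 endothelial markers passed with edgeR, and DESeq2 called 0. At an unadjusted p-value under 0.05 with edgeR, 1, 0 and 4 of them were lower, against 9.02% of all tested genes. The summed fibroblast level was 2942 and 3037 CPM in *Myh10*+/+ against 2948 and 2881 CPM in *Myh10*-/- lungs, with 3 of 6 markers below 0. All 6 smooth muscle markers were below 0 (684 and 739 against 666 and 664 CPM in sum). All 5 endothelial markers were below 0 as well (1413 and 1369 against 1302 and 1244 CPM in sum). Adjusted p-values here are from edgeR, and the part of cell composition in the values of *Wwtr1*, *Tead4* and *Ctgf* was not tested.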

How the data were processed

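Total RNA of the left lung lobes at E17 was made into stranded mRNA libraries and sequenced as single-end reads. The authors trimmed reads with Reaper, used STAR 2.4.0a for alignment to GRCm38, and counted reads per gene with featureCounts 1.5.1. They deposited raw counts, from which reads in more than 1 gene or with more than 1 alignment had been dropped. Whether strand was used is not stated. Here, genes with 5 or more counts on average, the study's minimum, were fitted with edgeR 4.0.16 in R 4.3.3 (TMM, quasi-likelihood test, Benjamini-Hochberg adjustment, no covariate), and DESeq2 1.42.0 was an alternative. The test was checked on simulated counts. P-values rest on the spread between 2 lungs per genotype, with the variance of each gene moderated by that of all tested genes. CPM were divided by kilobases of merged exons (GENCODE M21) to compare genes. *Patj* was matched by its identifier. In *Lats2*, 56.3% of 75-base transcript windows also lie in another gene (Gm49361), in *Ctgf* 6.04%, in *Yap1* 1.05% and in the other 7 genes none.

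The 10 genes and all lists were chosen with earlier results of these data known. Besides the 10 genes, the text names genes of each pathway list with the lowest unadjusted p-values (up to 3), markers that passed or define a list and sample checks. Values of 1 listed gene are not reported here, though it stays in the counts. Besides *Ctgf* and *Yap1*, the named list genes whose exons overlap opposite-strand genes (*Taok1*, *Tead2*, *Fat4*, *Gadd45a*, *Wisp3*, *Ptpn14*, *Crim1*, *Nppa*) have uncertain counts there. Alternatives covered normalization, filters, robust fitting, chromosomes, GC content and exon length (corrected by an offset per lung), the replicate block, and leaving out each lung. In lungs with the same number, deviations from the genotype mean had a correlation across genes of -0.142 (-0.0166 without chromosomes X and Y), so numbers were not taken as pairs.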

Additional observations from a re-analysis of the deposited data

How the results depend on the processing

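The direction of 8 of the 10 genes was the same in all 15 alternative fits, and the exceptions were *Cyr61* and *Lats2*, both near 0. The log2 fold change of *Cyr61* turned to 0.0037 with library totals, 0.035 with the GC content and exon length correction and 0.041 with that correction and the replicate block, and it lay between -0.20 and 0.19 with a lung left out, above 0 without *Myh10*+/+ lung 2 (0.19) or *Myh10*-/- lung 2 (0.059). *Lats2* lay between -0.066 and 0.10 with a lung left out, below 0 without *Myh10*-/- lung 1. With a lung left out, *Amotl2* lay between -0.18 and -0.018, *Lats1* between 0.047 and 0.17, *Yap1* between -0.074 and -0.023, *Amotl1* between -0.052 and -0.0052 and *Tead1* between 0.11 and 0.22. The cause was not tested.

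The count of the 10 genes called was 0 and changed to 3 with robust fitting (*Wwtr1*, *Tead4*, *Ctgf*), 4 with no filter (these and *Tead1*), 1 without chromosomes X, Y and MT (*Ctgf*), 1 with DESeq2 (*Wwtr1*), 3 with the replicate block (*Wwtr1*, *Tead4*, *Tead1*), and 1 with the GC content and exon length correction with or without that block (*Wwtr1*). Over all tested genes, robust fitting called 474 of 18763, no filter 1162 of 28549 and the fit without chromosomes X, Y and MT 379 of 18114. DESeq2 called 351 of the 10032 genes with an adjusted p-value. The replicate block called 710 of 18763, the correction 375 and the correction with the block 443. The count of the 10 was 0 with DESeq2's size factors (278 of 18763 genes called), library totals (346 of 18763) and filterByExpr (287 of 17281). With a lung left out, where the lone lung is assumed to vary like the others, it lay between 0 and 3, with 3 without *Myh10*-/- lung 2 (*Wwtr1*, *Tead4*, *Tead1*) and 1 without *Myh10*-/- lung 1 (*Ctgf*). Of the pathway genes, 0 were called, but 5 with no filter (*Wwc1*, *Ankrd1*, *F3* and *Gadd45a* among them), 2 with the replicate block (*Wwc1* among them) and 1 with the correction, with or without the block (*Tead2*), and between 0 and 4 with a lung left out. Over all genes, 308 were called, 474 with robust fitting, 1162 with no filter, 710 with the replicate block and between 191 (without *Myh10*+/+ lung 2) and 1826 (without *Myh10*-/- lung 2) with a lung left out. Of the genes called, 81.8% were lower, against 67.6% with library totals, 71.5% with robust fitting, 59.2% with no filter, 65.6% with the replicate block and 52.8% without *Myh10*-/- lung 2.

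DESeq2 called more markers than edgeR for heart muscle (6 against 5) and fewer for AT1 cells (4 against 7), AT2 cells (4 against 5), mesothelium (1 against 2), leukocytes (0 against 1), erythroid cells (0 against 2) and airway (0 against 1). Crossing the numbers, an alternative added after seeing the data that pairs the *Xist*-high lungs and the *Ddx3y*-high lungs, called 415 genes, 1 of the 10 (*Ctgf*, adjusted p = 0.0451 from edgeR) and 0 pathway genes. The 10 genes had 563 or more counts in every lung, and their intervals rest on 2 lungs per genotype.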
